A study of Homo sapiens with 18 samples.

Results

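TXNIP (thioredoxin-interacting protein) and its relatives ARRDC2, ARRDC3 and ARRDC4 are alpha-arrestins, proteins built on the arrestin fold. The 4 genes were selected by symbol from the 56269 genes of the deposited expression table, as a gene family proposed with earlier results of these data known, and all 4 were among the 13686 genes with a mean normalized count of at least 10 that were tested. A relative outside the selection, ARRDC1, was also tested, whereas ARRDC5 had no read in any of the 18 libraries.

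RNA from IMR90 cells, a human lung fibroblast line, was sequenced in 6 groups of 3 libraries each, described as biological replicates. Cells in every group grew in medium with 15% fetal bovine serum and were pre-incubated for 6 h with PBS, with 20 μg/ml of cNSF-HA (intact hyaluronan from naked mole-rat skin fibroblasts) or with 20 μg/ml of fNSF-HA (the same hyaluronan after partial fragmentation). The groups named PBS, cNSF and fNSF after these agents were collected right after the pre-incubation. In the groups PBS + tBHP, cNSF + tBHP and fNSF + tBHP the medium was removed, the cells were exposed to 200 μM tert-butyl hydroperoxide (tBHP), an organic oxidant, for 1 h, and they were collected 6 h after the exposure began. Since the tBHP groups were collected later and after a change of medium, the oxidant, the added hours and the new medium cannot be told apart in a tBHP response, which here is the difference between groups with and without tBHP under the same pre-incubation.

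TXNIP binds reduced thioredoxin and blocks its activity, and it also draws the glucose transporters GLUT1 and GLUT4 from the cell surface. Its transcription is known to follow glucose, through the paired factors MLXIP (MondoA) or MLXIPL (ChREBP) with MLX, which bind carbohydrate response elements. ARRDC4 is known to be controlled by the same factors and also limits glucose uptake. ARRDC3 is an adaptor that links membrane proteins such as the beta-2 adrenergic receptor to ubiquitin ligases of the NEDD4 family, and ARRDC2 is less well characterised. Of the 4 proteins, TXNIP is the member known for binding thioredoxin.

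The promoters of TXNIP and ARRDC4 are shown because both genes are known for glucose-response elements near their starts. RefSeq windows (GRCh38.p14) of the 250 bases upstream of each listed start were available for all 4 genes, giving 7 windows. In these sequences, written 5′ to 3′ on the strand of the gene, capitals mark matches to 4 motifs searched on both strands: the E-box CACGTG, the carbohydrate response element (CACGNG followed after 5 bases by CNCGNG), the CCAAT box, and the forkhead motif GTAAACA. An E-box can form part of a carbohydrate response element. GENCODE places the start of TXNIP slightly further upstream than RefSeq, so the last bases of its window lie in the GENCODE exon.
TXNIP, first start, chr1:145996580-145996829, minus strand: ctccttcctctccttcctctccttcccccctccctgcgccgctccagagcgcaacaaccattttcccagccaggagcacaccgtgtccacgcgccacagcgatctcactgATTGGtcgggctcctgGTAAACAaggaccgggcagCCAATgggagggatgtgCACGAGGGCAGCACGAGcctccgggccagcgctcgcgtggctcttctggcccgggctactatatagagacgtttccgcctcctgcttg
ARRDC4, chr15:97960453-97960702, plus strand: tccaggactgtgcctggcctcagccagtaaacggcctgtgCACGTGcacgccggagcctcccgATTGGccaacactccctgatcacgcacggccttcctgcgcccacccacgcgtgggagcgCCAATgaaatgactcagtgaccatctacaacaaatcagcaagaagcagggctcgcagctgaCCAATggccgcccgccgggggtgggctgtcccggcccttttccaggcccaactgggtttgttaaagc
The TXNIP window held 1 match to the carbohydrate response element beginning 88 bases before the start, and this 17-base match is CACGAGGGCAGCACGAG. A match to that pattern occurred in 0.424% of the 35116 upstream windows in the table. The same TXNIP window held CCAAT boxes at 140 and 105 bases and a forkhead motif at 124 bases before the start. The ARRDC4 window held an E-box at 210 bases, a motif found in 6.35% of windows, and CCAAT boxes at 187, 128 and 67 bases, and it had no match to the element as spelled above. In the other windows, a CCAAT box lay 93 bases before the second ARRDC2 start and 241 bases before the first ARRDC3 start, and a forkhead motif lay 29 bases before the second ARRDC3 start. CCAAT occurred in 32.0% of all windows and the forkhead motif in 2.98%, and no match was found at the second TXNIP start or the first ARRDC2 start.

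In GENCODE 29 (GRCh38), TXNIP occupies chr1:145992435-145996600 on the minus strand, ARRDC2 chr19:18001132-18014102 on the plus strand, ARRDC3 chr5:91368724-91383359 on the minus strand and ARRDC4 chr15:97960698-97973838 on the plus strand, all as protein-coding genes. The values describe reads over the exons of each gene. ARRDC3 overlaps ARRDC3-AS1 on the opposite strand and ARRDC2 overlaps the unnamed transcript AC020904.3, and the library kit does not mark strand, so reads from such regions cannot be told apart. ARRDC3-AS1 itself reached at most 9.85 normalized counts in any library.

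The libraries held 20261103 to 26287660 reads on genes, and a normalized count is a read count after division by the library size factor. All 9 fibroblast markers examined were detected, with a summed level of 1142220 to 1167487 without tBHP and 1016966 to 1362005 with it. Of the 3 endothelial markers, CDH5 was at 0 in all 18 libraries, PECAM1 was at 0 in 17 and VWF reached at most 25.0, with a summed level of 3.73 to 14.8 without tBHP and 13.1 to 25.1 with it. The sum of 4 epithelial markers was 174 to 198 without tBHP and 81.9 to 184 with it, nearly all of it KRT19 while KRT5 was at 0 in all 18 libraries, and that of 3 leukocyte markers was at most 5.87 without and 11.4 with tBHP. After tBHP in PBS cells, VWF rose by 1.32 (log2, adjusted p = 0.00982, limma) and KRT19 was at −0.46 (adjusted p = 0.0745). VWF was at 0.72 (adjusted p = 0.139) in cNSF and 1.18 (adjusted p = 0.0225) in fNSF cells, and KRT19 at −0.49 (adjusted p = 0.0618) and −0.59 (adjusted p = 0.0297). Of the fibroblast markers, 1 rose and 3 fell in PBS cells, with PDGFRB, a growth factor receptor, at 0.60 (adjusted p = 3.27e-05) and LUM, a matrix proteoglycan, at −1.33 (adjusted p = 4.11e-09). LUM also differed between pre-incubations after tBHP, by 0.60 for fNSF minus PBS (adjusted p = 0.0261, limma), where 0.139% of all tested genes were called. For cNSF minus fNSF it was at −0.50 (adjusted p = 0.0981), with all cNSF libraries lower, as for 8.29% of all tested genes. The part of these marker changes in the results was not tested. The libraries fNSF + tBHP replicates 2 and 3 stood apart from the rest. Relative to their group mean, the median of the 10% of genes with the highest transcript GC content lay at −0.52 on the log2 scale in replicate 2 and 0.44 in replicate 3. The median within-group SD over the 12528 tested genes with a GC value was 0.0715 (log2) without tBHP and 0.197 with tBHP.

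TXNIP had the highest level of the 4 genes. In PBS cells it measured 1187, 1201 and 1225 normalized counts in replicates 1, 2 and 3, with 1238, 1293 and 1185 in cNSF cells and 1232, 1184 and 1303 in fNSF cells. After tBHP it measured 1733, 2095 and 1916 in PBS cells, 1576, 1693 and 1791 in cNSF cells, and 2050, 2312 and 2032 in fNSF cells. Every library with tBHP lay above every library without it, whichever the pre-incubation. In order, the group means were 2131 ± 157 (SD, n = 3) in fNSF + tBHP, 1914 ± 181 in PBS + tBHP, 1687 ± 108 in cNSF + tBHP, 1240 ± 59.9 in fNSF, 1239 ± 54.2 in cNSF and 1204 ± 19.5 in PBS. Neighbours in this order had overlapping ranges, except that cNSF + tBHP stood clear of fNSF.

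ARRDC2 had the lowest level before tBHP and the largest tBHP response. Its normalized counts were 220, 199 and 205 in PBS cells, 228, 228 and 204 in cNSF cells, and 187, 211 and 204 in fNSF cells. After tBHP they were 498, 477 and 462 in PBS cells, 461, 517 and 564 in cNSF cells, and 367, 326 and 482 in fNSF cells. Every tBHP library exceeded every library without tBHP, and the widest spread was within fNSF + tBHP, where replicate 2 was lowest and replicate 3 highest. The order of means was cNSF + tBHP (514 ± 51.8), PBS + tBHP (479 ± 18.3), fNSF + tBHP (391 ± 81.0), cNSF (220 ± 14.0), PBS (208 ± 11.0) and fNSF (200.8 ± 12.1). The break between ranges fell between fNSF + tBHP and cNSF, and other neighbours overlapped.

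ARRDC4, the other glucose-responsive gene, measured 325, 319 and 301 normalized counts in PBS cells, 296, 301 and 317 in cNSF cells, and 313, 313 and 319 in fNSF cells. After tBHP it measured 413, 499 and 488 in PBS cells, 358, 368 and 354 in cNSF cells, and 475, 572 and 436 in fNSF cells. The cNSF + tBHP libraries formed a narrow band of their own, above all libraries without tBHP and below all other libraries with it. Means ran from 495 ± 70.1 (fNSF + tBHP) through 467 ± 46.6 (PBS + tBHP) and 360 ± 7.44 (cNSF + tBHP) to 315 ± 12.7 (PBS), 315 ± 3.20 (fNSF) and 305 ± 11.3 (cNSF). Ranges were separate on both sides of cNSF + tBHP and overlapped between the other neighbours.

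ARRDC3, the adaptor for membrane proteins, had the smallest tBHP response of the 4 in the deposited values. It measured 559, 563 and 611 normalized counts in PBS cells, 506, 560 and 555 in cNSF cells, and 570, 620 and 588 in fNSF cells. After tBHP it measured 565, 860 and 646 in PBS cells, 571, 642 and 568 in cNSF cells, and 738, 956 and 600 in fNSF cells. A single high library, replicate 2, stood out in both PBS + tBHP and fNSF + tBHP. Each of these groups overlapped its counterpart without tBHP, whereas the cNSF libraries with tBHP all lay above those without. In order of means, fNSF + tBHP (765 ± 179.6), PBS + tBHP (690 ± 152.5), cNSF + tBHP (594 ± 41.9), fNSF (592.5 ± 25.3), PBS (578 ± 29.2) and cNSF (540 ± 30.1) all overlapped the next.

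**Figure D1:**
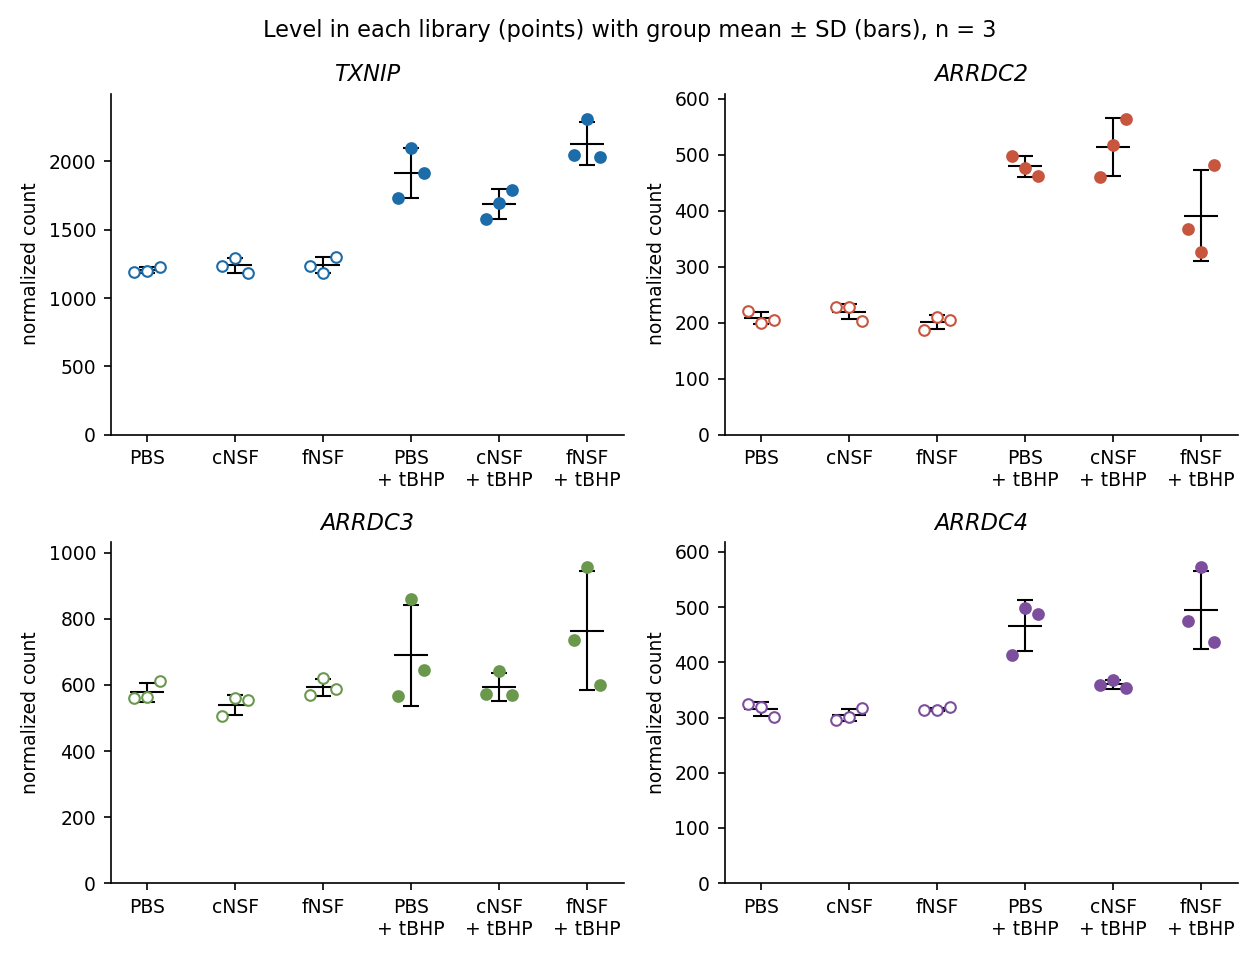
Normalized count (vertical axis, from 0) of TXNIP, ARRDC2, ARRDC3 and ARRDC4 in each of the 18 libraries, by group (horizontal axis). Open points are libraries without tBHP, filled points libraries with tBHP, and bars the mean ± SD of 3 libraries. For TXNIP, ARRDC2 and ARRDC4 all filled points lie above the open points, while those of ARRDC3 overlap except within cNSF cells.

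The plot of levels by group shows the separation for TXNIP, ARRDC2 and ARRDC4. For ARRDC3, libraries with and without tBHP overlapped in PBS and fNSF cells but not in cNSF cells. Per kilobase of exon, which allows levels to be compared between genes, PBS cells held 332 ± 5.39 normalized counts of TXNIP, 117 ± 5.92 of ARRDC3, 77.4 ± 3.12 of ARRDC4 and 44.9 ± 2.38 of ARRDC2 (SD, n = 3). After tBHP in PBS cells the per-kilobase levels were 528 ± 49.9, 139.9 ± 30.9, 115 ± 11.5 and 103 ± 3.95 in the same order. TXNIP thus remained the most abundant of the 4 transcripts, and the ranking of the genes was unchanged in PBS cells.

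The tBHP response was tested with limma on log2(normalized count + 1), with all 18 libraries in 1 fit and Benjamini-Hochberg adjustment over all 13686 genes. ARRDC2 rose after tBHP by 1.20 (log2, SE 0.120, 95% interval 0.948 to 1.45, adjusted p = 2.75e-07) in PBS cells, a 2.30-fold change. Its response was 1.22 (0.967 to 1.47, adjusted p = 2.53e-07) in cNSF cells and 0.94 (0.689 to 1.19, adjusted p = 6.02e-06) in fNSF cells. ARRDC2 was thus called in all 3 pre-incubations.

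TXNIP rose by 0.66 (SE 0.0786, 95% interval 0.499 to 0.829, adjusted p = 1.99e-06, limma) in PBS cells, by 0.44 (0.279 to 0.61, adjusted p = 0.000154) in cNSF cells and by 0.78 (0.614 to 0.945, adjusted p = 3.73e-07) in fNSF cells. As folds these were 1.36 in cNSF cells and 1.72 in fNSF cells. ARRDC4 rose by 0.56 (SE 0.0973, 0.356 to 0.765, adjusted p = 0.00012) in PBS cells and by 0.64 (0.436 to 0.845, adjusted p = 4.1e-05) in fNSF cells. Its response in cNSF cells was 0.24 (0.036 to 0.445, adjusted p = 0.0472), close to the threshold, and without any 1 of the 6 libraries of that comparison it was no longer called (0.22 to 0.27, adjusted p 0.0606 to 0.121). All 3 of these genes thus passed the test under each pre-incubation.

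The ARRDC3 response did not pass the test, with 0.24 (SE 0.145, 95% interval −0.07 to 0.54, adjusted p = 0.186, limma) in PBS cells, 0.14 (−0.169 to 0.44, adjusted p = 0.452) in cNSF cells and 0.34 (0.037 to 0.647, adjusted p = 0.0668) in fNSF cells. In fNSF cells the ARRDC3 call depended on the tool and on the libraries. It was called with edgeR (0.43), DESeq2 (0.37), quantile normalization (0.39) and a replicate block (0.34, adjusted p = 0.0314). In the same order, these settings called 5919, 5902, 5802 and 5944 genes in either direction, against 5733 in the main fit. Without fNSF + tBHP replicate 3 the ARRDC3 response was 0.50 (adjusted p = 0.00639), where 18.2% of all tested genes were called higher, and without replicate 2 it was 0.17 (adjusted p = 0.29). Without the same libraries the TXNIP response was 0.81 and 0.72, that of ARRDC2 0.78 and 1.06 and that of ARRDC4 0.73 and 0.53, all still called. In PBS cells the ARRDC3 response was 0.07 without PBS + tBHP replicate 2, its high library.

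The members were therefore called higher in 3 of 4 cases within each pre-incubation, and none was called lower. Among all tested genes, 24.2% were called higher after tBHP in PBS cells, 24% in cNSF cells and 19.2% in fNSF cells. Every library with tBHP lay above every library without it for 31.8% of all tested genes in PBS cells, 31.4% in cNSF cells and 22.6% in fNSF cells, so a rise of this kind was common. The median log2 response over all tested genes was 0.004 in PBS cells, −0.001 in cNSF cells and −0.034 in fNSF cells. In bulk RNA, a change in the cells that remain and a change in RNA per cell cannot be told apart.

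Part of the spread within the tBHP groups followed the GC content of the transcripts, on which the 4 genes differ widely. The GC content of the longest transcript was 60.2% for ARRDC2, 43.9% for TXNIP, 43.4% for ARRDC4 and 37.6% for ARRDC3, at percentiles 86.9, 34.3, 32.2 and 7.12 among the tested genes with a value. In fNSF + tBHP replicate 2, where the high-GC genes lay at −0.52, ARRDC2 lay at −0.245 and ARRDC3 at 0.35 relative to the group mean (log2). In replicate 3, where the high-GC genes lay at 0.44, ARRDC2 lay at 0.32 and ARRDC3 at −0.32. ARRDC2 and ARRDC3 thus deviated in opposite directions in the same libraries.

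**Figure D2:**
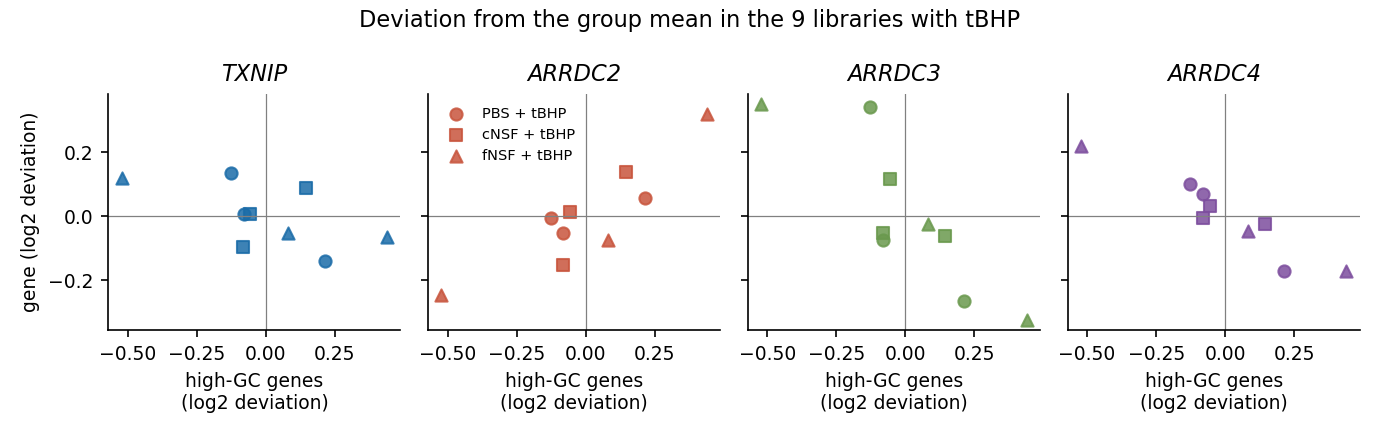
Deviation of each gene from its group mean (vertical axis, log2) against the median deviation of the 10% of genes with the highest transcript GC content (horizontal axis, log2) in the 9 libraries with tBHP. Circles are PBS, squares cNSF and triangles fNSF pre-incubation, and at the leftmost point (fNSF + tBHP replicate 2, −0.52) ARRDC2 lies low (−0.245) while ARRDC3 (0.35) and ARRDC4 (0.22) lie high, with the reverse at the rightmost point (replicate 3).

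In the plot of deviations against GC content, the outermost triangles are fNSF + tBHP replicates 2 and 3. When a smooth trend with transcript GC content and length was removed from each library, a step chosen after seeing the data, the within-group SD after tBHP fell from 0.270 to 0.126 (log2) for ARRDC3. The SD went from 0.190 to 0.119 for ARRDC2, from 0.145 to 0.0643 for ARRDC4 and from 0.113 to 0.0687 for TXNIP. The step also removes any trend with GC content that came with tBHP itself.

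With this trend removed, all 4 genes rose after tBHP under each pre-incubation. The ARRDC3 response became 0.71 in PBS cells (adjusted p = 3.94e-08, limma), 0.56 in cNSF cells (adjusted p = 1.23e-06) and 0.61 in fNSF cells (adjusted p = 3.84e-07). The ARRDC2 response became 0.92, 0.94 and 0.89, that of TXNIP 0.82, 0.56 and 0.83, and that of ARRDC4 0.74, 0.42 and 0.73 in PBS, cNSF and fNSF cells. Among all genes with a GC value, 28.3%, 28.2% and 27.6% were called higher in these 3 fits. The 4 responses lay closer together than in the deposited values, and in PBS and cNSF cells this step was the sole alternative run that called ARRDC3.

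**Figure D3:**
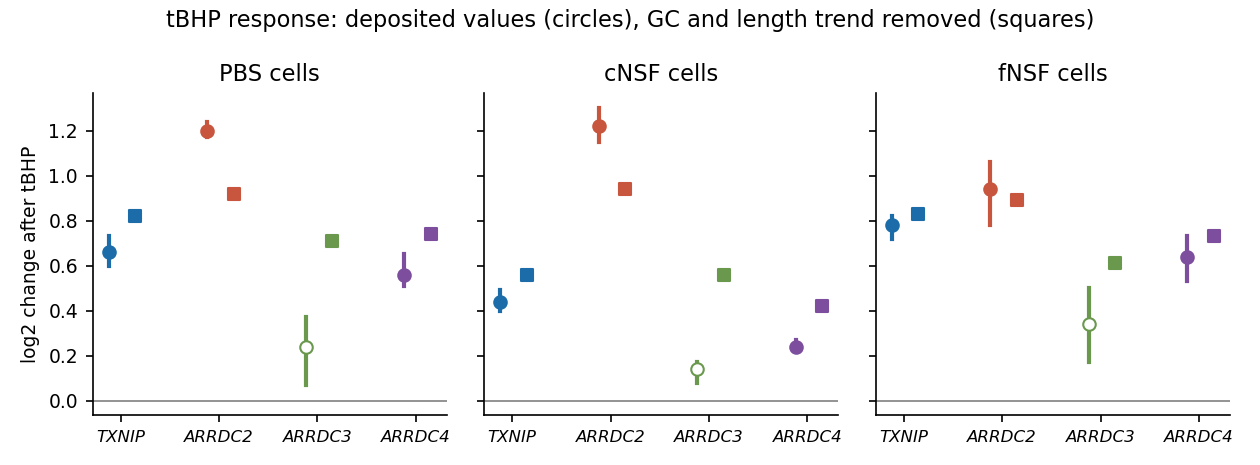
Log2 change after tBHP (vertical axis) of each gene (horizontal axis) in PBS, cNSF and fNSF cells, from the deposited values (circles) and with the GC and length trend removed (squares). Filled symbols passed an adjusted p of 0.05 (limma), and vertical lines span the values with 1 library left out, with ARRDC3 the open circle in each panel and a filled square throughout.

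Without tBHP, the groups compare hyaluronan with PBS and the longer with the shorter polymer, and limma called no difference for any of the 4 genes. Their log2 differences between groups ranged from −0.13 (ARRDC3, cNSF minus fNSF, 95% interval −0.438 to 0.171, all cNSF libraries lower, as for 17.1% of all tested genes) to 0.13 (ARRDC2, the same comparison, −0.122 to 0.382). For TXNIP, cNSF minus PBS was 0.04 (−0.126 to 0.205), fNSF minus PBS 0.04 (−0.124 to 0.206) and cNSF minus fNSF −0.001 (−0.167 to 0.164). For ARRDC4 the differences were −0.05 (−0.253 to 0.156), 0.00 (−0.205 to 0.204) and −0.05 (−0.253 to 0.157) in the same order. Limma called 0% of all genes in each of these comparisons (126, 109 and 206 genes at an unadjusted p under 0.05), edgeR called 0, and DESeq2 called 0, 3 and 0. A fit of just the 6 libraries compared called 980 genes for cNSF minus fNSF and 21 for fNSF minus PBS, and none of the 4 was among them.

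After tBHP, cNSF cells held less TXNIP and ARRDC4 than fNSF cells in every library, but no member passed the adjusted threshold with limma. TXNIP was −0.34 (SE 0.0786, 95% interval −0.502 to −0.171, adjusted p = 0.0981) and ARRDC4 −0.45 (SE 0.0973, −0.652 to −0.243, adjusted p = 0.0981). By unadjusted p they stood at ranks 28 and 16 of the 13686 genes. For 8.29% of all tested genes, every cNSF + tBHP library lay below every fNSF + tBHP library.

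ARRDC2 was higher in cNSF than in fNSF cells by 0.41 (0.156 to 0.66, adjusted p = 0.0981) with overlapping libraries, and ARRDC3 differed by −0.34 (−0.645 to −0.036, adjusted p = 0.123). Limma called 0% of genes here, with 4412 (32.2%) at an unadjusted p under 0.05, edgeR called 0 genes and DESeq2 called 923, or 9.26% of those it gave an adjusted p. With DESeq2 the adjusted p was 0.0177 for TXNIP, 0.0109 for ARRDC4, 0.04 for ARRDC2 and 0.0744 for ARRDC3, and with edgeR it was 0.116, 0.116, 0.116 and 0.128. The call for TXNIP, ARRDC4 and ARRDC2 thus depended on the tool.

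These differences also rested on which fNSF + tBHP library was included. Without replicate 3, 40.8% of all tested genes were called with limma, and the 4 genes were among them (TXNIP −0.37, adjusted p = 0.0037; ARRDC2 0.57, adjusted p = 0.00145; ARRDC3 −0.50, adjusted p = 0.00852; ARRDC4 −0.53, adjusted p = 0.00148). Without replicate 2 the differences were −0.28, 0.29, −0.17 and −0.34, with adjusted p from 0.572 to 0.647. With the GC and length trend removed, TXNIP was −0.23 and ARRDC4 −0.30 (adjusted p = 0.0951 for both), while ARRDC2 was 0.12 and ARRDC3 −0.08. The differences of TXNIP and ARRDC4 thus shrank less with this step than those of ARRDC2 and ARRDC3.

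Against PBS cells after tBHP, cNSF cells had ARRDC4 lower in every library, at −0.37 (95% interval −0.572 to −0.163, adjusted p = 0.392, limma), as was the case for 5.01% of all tested genes. TXNIP was −0.18 (−0.346 to −0.015, adjusted p = 0.567), ARRDC3 −0.20 (−0.501 to 0.108) and ARRDC2 0.10 (−0.154 to 0.35). None was called, and limma called 0% of all genes (1183 at an unadjusted p under 0.05), edgeR 0 and DESeq2 5.

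In fNSF cells after tBHP, the differences from PBS cells were −0.31 (−0.562 to −0.058, adjusted p = 0.162) for ARRDC2, 0.16 (−0.009 to 0.322) for TXNIP, 0.08 (−0.125 to 0.284) for ARRDC4 and 0.14 (−0.161 to 0.448) for ARRDC3. No member was among the 0.139% of genes called with limma. ARRDC2 was called at −0.47 (adjusted p = 0.00537) without fNSF + tBHP replicate 3, where 29.4% of all tested genes were called, was −0.19 without replicate 2, and was −0.06 with the GC and length trend removed. These comparisons share the groups they are made from, so their values are not independent.

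**Figure D4:**
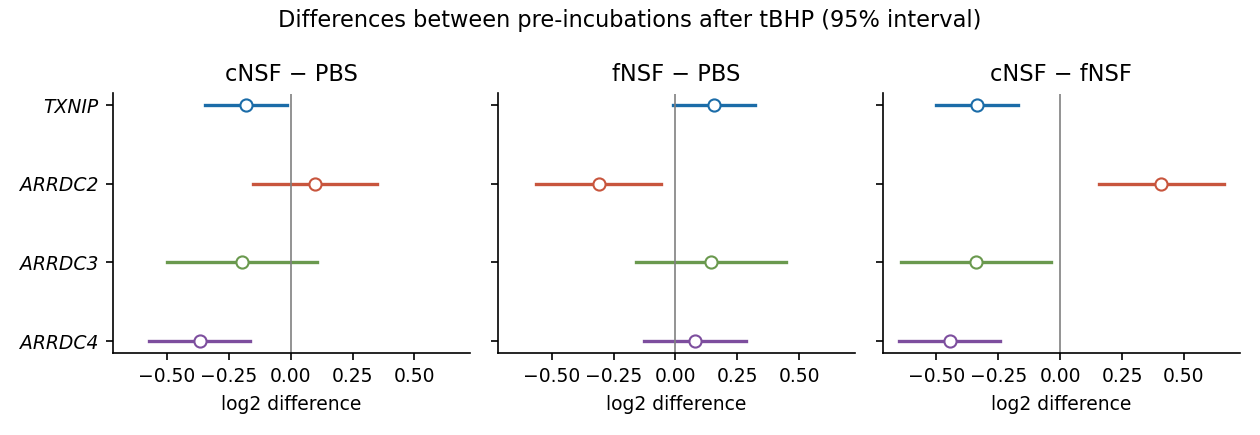
Log2 difference (horizontal axis) between pre-incubations after tBHP for each gene, with the 95% interval from limma. No point is filled, as none passed an adjusted p of 0.05, and for cNSF minus fNSF the intervals of TXNIP, ARRDC3 and ARRDC4 lie below 0 (−0.34, −0.34 and −0.45) and that of ARRDC2 above it (0.41).

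The intervals in the plot of differences after tBHP are those before adjustment for the number of genes. Whether the tBHP response itself depended on the pre-incubation was tested as an interaction. The response in cNSF cells minus that in fNSF cells was −0.34 (95% interval −0.569 to −0.101) for TXNIP, −0.40 (−0.689 to −0.11) for ARRDC4, 0.28 (−0.079 to 0.634) for ARRDC2 and −0.21 (−0.637 to 0.224) for ARRDC3, with adjusted p from 0.71 to 0.727 (limma). Against PBS cells, the cNSF response was −0.32 (−0.609 to −0.03) for ARRDC4 and −0.22 (−0.454 to 0.014) for TXNIP, and the fNSF response was 0.08 (−0.21 to 0.369) and 0.12 (−0.118 to 0.349). Limma called 0% of all genes in the differences between responses (533, 555 and 942 genes at an unadjusted p under 0.05 for cNSF minus fNSF, cNSF minus PBS and fNSF minus PBS), edgeR called 0, and DESeq2 called 0, 0 and 6.

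Other genes of the same pathways were examined in lists. In the thioredoxin system, which holds thioredoxins and their reductases, 3 of 5 genes rose and 1 fell after tBHP in PBS cells. TXNRD1, the cytosolic thioredoxin reductase, rose by 1.56 (log2, adjusted p = 3.3e-11, limma), TXN (cytosolic thioredoxin) by 0.32 (adjusted p = 0.00183) and TXN2 (mitochondrial thioredoxin) by 0.25 (adjusted p = 0.0379). TXNRD3 fell, at −0.49 (adjusted p = 0.01145), and TXNRD2, the mitochondrial reductase, was at 0.05 (adjusted p = 0.792). The median of the list was 0.25 in PBS cells. In cNSF cells 3 of the 5 genes rose and 0 fell, where 24% of all tested genes were called higher. In fNSF cells 2 rose and 0 fell, where 19.2% were called higher. TXN was at 0.61 in cNSF and 0.65 in fNSF cells, and TXN2 did not pass in fNSF cells (0.195, adjusted p = 0.118, limma). Over all tested genes, 24.2% were called higher and 26.9% lower in PBS cells, and the counts of these short lists are given beside that background.

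Of the glucose-sensing factors, MLXIP was at 0.15 (adjusted p = 0.165, limma) and MLX at −0.12 (adjusted p = 0.12) in PBS cells, and neither passed the test under any pre-incubation. MLXIPL had a mean of 0.566 normalized counts and was not tested. Among the other arrestins, ARRB1 (beta-arrestin 1) rose by 0.78 (adjusted p = 0.0215) in PBS cells. Its response of 0.17 in cNSF cells and −0.195 in fNSF cells did not pass, and none of the differences between its 3 responses passed the test (−0.60 for cNSF minus PBS, −0.97 for fNSF minus PBS and 0.37 for cNSF minus fNSF, adjusted p 0.667 to 0.999, limma). ARRDC1, an alpha-arrestin that forms extracellular vesicles at the plasma membrane, was at 0.37 (adjusted p = 0.223) in PBS cells and 0.48 (adjusted p = 0.109) in cNSF cells. All its tBHP libraries were higher in both, as for 31.8% and 31.4% of all tested genes. In fNSF cells ARRDC1 was at 0.065 (adjusted p = 0.857) with overlapping libraries, and its levels spread from 92.5 to 263 normalized counts within fNSF + tBHP. ARRDC1 (chr9:137605654-137615360) shares only its last bases with the antisense gene ARRDC1-AS1 (from 137615332), which reached 267 normalized counts. The span of a same-strand transcript, AL590627.2 (137605744-137711018), covers most of ARRDC1. No level was available for AL590627.2, so the reads of ARRDC1 are uncertain.

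Among 7 tested glucose transporters and hexokinases, 2 rose and 1 fell in PBS cells, with a list median of −0.05. The one that fell was HK2, an inducible hexokinase, by 0.64 (adjusted p = 0.000141, limma) on the log2 scale, and its difference was −0.71 in cNSF and −0.57 in fNSF cells. Of the 9 NEDD4-family ubiquitin ligases, which bind arrestin-domain proteins, 2 rose and 4 fell in PBS cells (median −0.03). SMURF1 rose by 0.72 (adjusted p = 2.45e-07), with 0.64 and 0.73 in cNSF and fNSF cells.

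Of the 6 subunits of AMPK, the energy-sensing kinase known to phosphorylate TXNIP, 1 rose and 3 fell in PBS cells, with a list median of −0.33 beside 0.004 over all tested genes. The regulatory subunit PRKAB1 rose by 0.96 (adjusted p = 9.61e-09, limma), and the regulatory PRKAG2 was at −1.19 (adjusted p = 8.58e-08). The catalytic subunits PRKAA1 and PRKAA2 were at −0.51 (adjusted p = 0.013) and −2.00 (adjusted p = 0.000262). Of the 2 tested genes for known cargo of arrestin-domain proteins, both fell, and SLC11A2, an iron transporter, was at −0.70 in PBS cells, −0.53 in cNSF cells and −0.49 in fNSF cells.

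**Figure D5:**
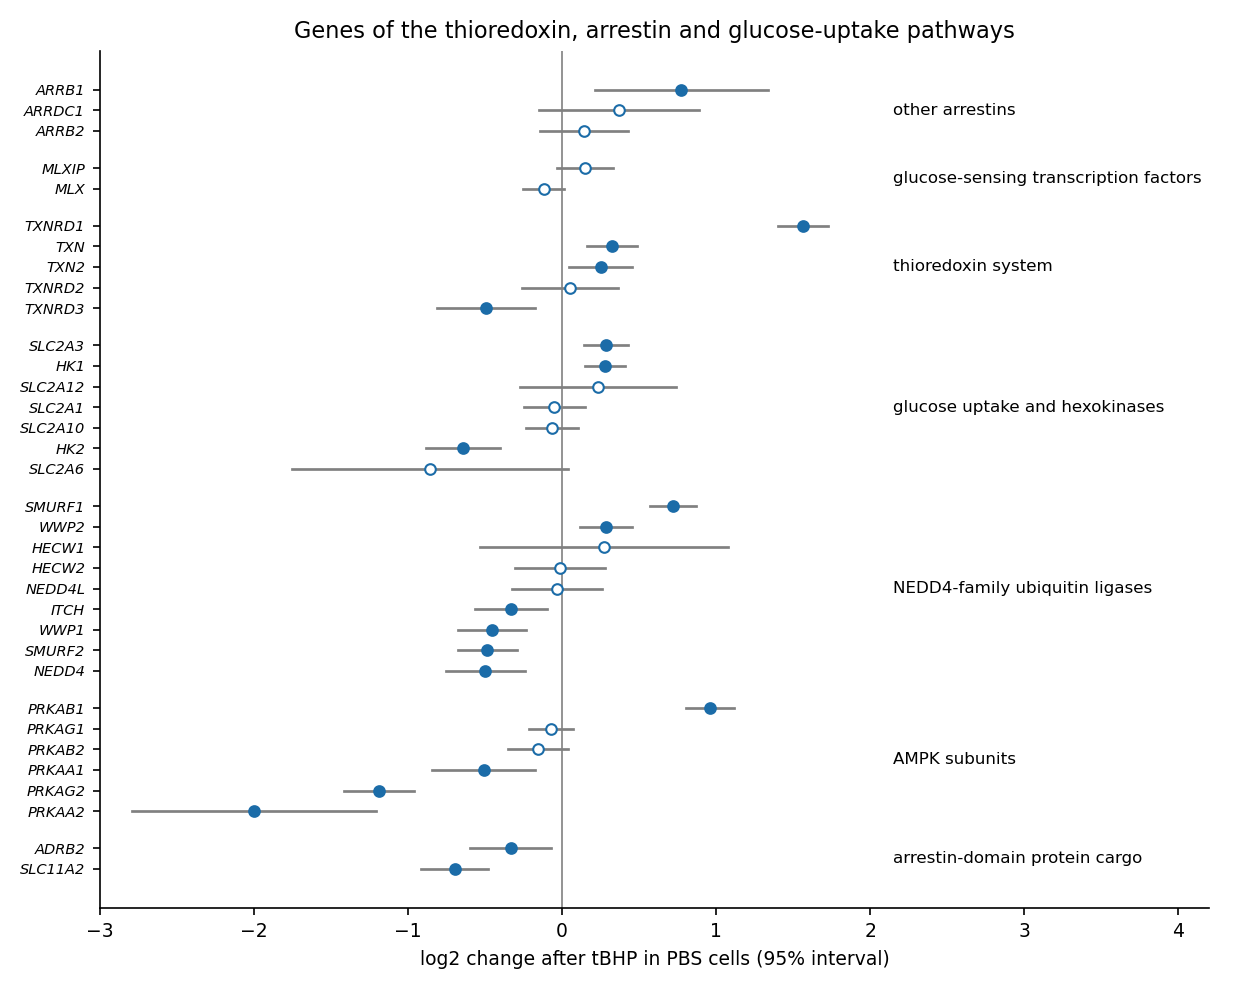
Log2 change after tBHP in PBS cells (horizontal axis) with 95% intervals for the tested genes of each list (vertical axis). Filled points passed an adjusted p of 0.05 (limma), and TXNRD1 (1.56) and PRKAA2 (−2.00) lie at the ends.

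The plot of the pathway genes shows members of each list on both sides of 0, apart from the cargo genes and the other arrestins. Between cNSF and fNSF cells after tBHP, limma on all 18 libraries called 0% of all tested genes, so it could call none in these lists. The lists were not examined with other tools or with libraries left out.

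Likeness of pattern was described by Pearson's r over the 18 libraries on the log2 scale, among 10309 genes with a mean of at least 100 normalized counts. The libraries fall into 9 with and 9 without tBHP, and r over all 18 combines the step between these sets with the spread inside them. The genes most like TXNIP were SMIM14 (r = 0.979), TP53INP1 (0.976), TLK2 (0.976), MT-ND2 (0.974) and GCLM (0.974), and their r was 0.856 to 0.871 within the 9 tBHP libraries and −0.056 to 0.48 within the others. For ARRDC2 they were ADCK3 (0.993), STX1A (0.992) and FADS3 (0.988). For ARRDC4 they were CCNG2 (0.964), HECA (0.962) and RRM2B (0.961), and for ARRDC3 KITLG (0.956), HSPA13 (0.943) and VPS4B (0.937).

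Between the members, r over the 18 libraries was 0.938 for TXNIP with ARRDC4, 0.826 for TXNIP with ARRDC2, 0.817 for ARRDC3 with ARRDC4, 0.718 for TXNIP with ARRDC3, 0.664 for ARRDC2 with ARRDC4 and 0.321 for ARRDC2 with ARRDC3. The most distant pair was the one farthest apart in transcript GC content, and a link between r and GC content was not tested. TXNIP and ARRDC4, with similar GC content (43.9% and 43.4%), had an r of 0.826 and 0.664 with ARRDC2. These points share library and depth, and 214 of the 13686 tested genes had a higher r with TXNIP than ARRDC4 had.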

How the data were processed

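RNA-seq was performed on IMR90 cells in 6 groups of 3 libraries. Libraries were made with the TruSeq RNA V2 kit and sequenced as single-end reads of 100 nt. The processing notes of the submitters name Trimmomatic 0.32, STAR 2.5.2b, featureCounts (Subread 1.5.0-p3), DESeq2 and GRCh38.p7, and the annotation was not given in the sources used here. The authors deposited 1 signal value per gene and library, which is the read count divided by the DESeq2 size factor. In every library 100% of values were whole multiples of 1 read (tolerance 0.1 of a read), so the reads were recovered. The table also holds a p-value, a q-value and a rank of the authors, which were not used.

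Genes with a mean of at least 10 (13686) entered a two-sided limma test (version 3.58.1, R 4.3.3) on log2(value + 1), fitting a trend of variance with mean and a coefficient for each group, with Benjamini-Hochberg adjustment and a threshold of 0.05. Such log2 changes understate those of low genes. On the recovered reads, edgeR 4.0.16 (quasi-likelihood) called 7281 genes and DESeq2 1.42.0 called 7181 for the tBHP response in PBS cells, against 6995 with limma. The libraries held 20261103 to 26287660 reads, and no replicate pair was identical. The scripts were tested on simulated data.

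The other alternatives were pseudocounts of 0.1 and 5, no filter, quantile normalization, a minimum mean of 50, scaling to equal medians, a replicate block, only the groups compared, each library left out in turn and, chosen after seeing the data, removal of a trend with transcript GC content and length (splines with 5 degrees of freedom, GENCODE 29, 12528 of the tested genes, or 91.5%). Labels share replicate numbers without saying what they mark. In 0 of 15 pairs of groups did every same-number pair deviate together (correlation over 0.1), so the libraries were not treated as paired.

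The 4 members and all lists were chosen with earlier results of these data known. Of the lists, genes called in PBS cells with a log2 change of at least 0.5 in size could be named, along with the thioredoxins, TXNRD1, TXNRD2, ARRDC1, ARRDC5 and the glucose sensors. TXNRD3 was named after its value was seen, as the 1 gene of its list that fell. For likeness, the 5 genes with the highest r to TXNIP and the 3 highest to each other member are named.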

Additional observations from a re-analysis of the deposited data

How the results depend on the processing

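The direction of the TXNIP, ARRDC2 and ARRDC4 tBHP responses held under every alternative run, and each stayed called except ARRDC4 in cNSF cells, which was 0.24 (adjusted p = 0.0883) with no filter and 0.22 to 0.27 with 1 library left out. The ARRDC3 response was called with the GC and length trend removed (0.71 in PBS, 0.56 in cNSF and 0.61 in fNSF cells) and, in fNSF cells, with quantile normalization (0.39), a replicate block (0.34, adjusted p = 0.0314), edgeR (0.43) and DESeq2 (0.37), and ranged from 0.17 to 0.50 there with 1 library left out. Over all genes, quantile normalization called 5802 in fNSF cells, the replicate block 5944, edgeR 5919 and DESeq2 5902, in either direction. The cause of the changes in the ARRDC3 call was not tested. The replicate block changed no other call of the 4 genes and raised the genes called for fNSF minus PBS after tBHP from 19 to 61.

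Between cNSF and fNSF cells after tBHP, DESeq2 called TXNIP (−0.33), ARRDC2 (0.40) and ARRDC4 (−0.45). With 1 library left out the range was −0.38 to −0.28 for TXNIP, 0.29 to 0.57 for ARRDC2, −0.50 to −0.17 for ARRDC3 and −0.53 to −0.34 for ARRDC4. For fNSF minus PBS after tBHP it was −0.47 to −0.19 for ARRDC2, −0.03 to 0.31 for ARRDC3 and −0.03 to 0.17 for ARRDC4, and with the trend removed ARRDC3 was −0.09 and ARRDC4 −0.03.

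Values near 0 changed sign. TXNIP in cNSF minus fNSF cells without tBHP was 0 when rescaled and with DESeq2, 0.02 with edgeR, 0.03 with quantile normalization, 0.04 with the trend removed and −0.03 to 0.04 with 1 library left out. ARRDC4 there was 0 with the trend removed, and its fNSF minus PBS difference was −0.03 to 0.02 with 1 library left out. In the differences between responses, the range with 1 library left out was −0.05 to 0.10 for ARRDC2 and −0.23 to 0.07 for ARRDC3 (cNSF minus PBS), and −0.07 to 0.28 for ARRDC3 and −0.03 to 0.17 for ARRDC4 (fNSF minus PBS), where the trend-removed values were −0.10 and −0.01.

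Over all genes, the number called moved by more than 1.5 times mainly after tBHP. For fNSF minus PBS it was 19 with limma, 3 with no filter, 30 at a minimum mean of 50, 36 with edgeR, 442 with DESeq2, 0 with only the groups compared and 63 with the trend removed, and with 1 library left out it was 4024 without fNSF + tBHP replicate 3, 171 without PBS + tBHP replicate 2, 4 without PBS + tBHP replicate 1 and 0 without PBS + tBHP replicate 3 or fNSF + tBHP replicate 1 or 2. For cNSF minus fNSF it was 0 with limma, 923 with DESeq2, 5586 without fNSF + tBHP replicate 3 and 1 with a pseudocount of 0.1 or the trend removed. For cNSF minus PBS it was 0 with limma, 5 with DESeq2 and 4 with the trend removed. Without tBHP, it was 980 for cNSF minus fNSF and 21 for fNSF minus PBS with only the groups compared, against 0, and no filter gave 5 for fNSF minus PBS and 4 for cNSF minus PBS.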
